A study of Rattus norvegicus with 9 samples.

Results

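The mismatch repair genes described here are Msh3, Msh6, Pms2, Mlh3 and Pms1, which encode homologs of the bacterial MutS and MutL proteins. They were chosen by symbol, as the rows of the count table with these names, and make up 5 of the 34322 genes listed. The study sequenced mRNA of CC-531, a colon carcinoma line of WAG/Rij rats, to assign a consensus molecular subtype of colorectal cancer to its cells, organoids and tumors, and the 3 types are compared with each other here. Cells grew in RPMI1640 medium with serum at 37°C and were sampled at passages 5, 8 and 11. Organoids were the same line grown in matrigel and were sampled at passages 7, 8 and 9. Ex vivo tumors were taken from the peritoneal cavity of WAG/Rij rats. The rats of the study received CC-531 cells by intraperitoneal injection at an age of 8 to 10 weeks. The labels number the tumors 1 to 3 with no passage or animal named, while the study's methods state 3 different passages for each sample type. The labels list no drug or heat treatment for any of the 9 libraries, 3 of each type. All of them derive from 1 cell line, and the tumors also hold cells of the host. Apart from the passage, nothing in the labels says whether the 3 libraries of 1 type go back to independent cultures or different animals. The p-values therefore reflect the spread from library to library alone, part of which may be technical.

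Mismatch repair removes base mispairs and small loops that DNA polymerase leaves behind. MutS homologs work as dimers that find the error: Msh6 takes part in the recognition of base mispairs and short loops, and Msh3 in that of larger loops. MutL homologs, also dimers, then direct the removal of the new strand: Pms2 carries the endonuclease that nicks DNA in the main pathway, Mlh3 acts chiefly in meiotic crossing over with a smaller part in repair, and the role of Pms1 in mammals is less clear. Exonucleases remove the nicked strand, and polymerase and ligase restore it. In colorectal cancer, loss of mismatch repair leads to microsatellite instability, a feature of the immune-infiltrated molecular subtype. Transcript levels say nothing about mutations or protein, which were not measured here.

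The promoters of the members differed in the sequence motifs they held. RefSeq windows from 250 bases before to 50 bases after the annotated start in the GRCr8 build were present for Msh3, Msh6, Pms2 and Mlh3. The Msh6, Msh3 and Pms2 windows are shown because the gene with the E2F-type motif and the pair of MutS genes are compared below, and because the Pms2 window is shared with a neighbouring gene. They lie at chr6:12333456-12333755, chr2:25320808-25321107 and chr12:15814671-15814970, each on the minus strand, and are written 5′ to 3′ along the gene. Capitals mark matches on either strand to the motifs searched, TTTCCCGC and TTTGGCGC (E2F type), GGGCGG (GC box), CCAAT, and CCGGAA (ETS type), which can overlap.
Msh6: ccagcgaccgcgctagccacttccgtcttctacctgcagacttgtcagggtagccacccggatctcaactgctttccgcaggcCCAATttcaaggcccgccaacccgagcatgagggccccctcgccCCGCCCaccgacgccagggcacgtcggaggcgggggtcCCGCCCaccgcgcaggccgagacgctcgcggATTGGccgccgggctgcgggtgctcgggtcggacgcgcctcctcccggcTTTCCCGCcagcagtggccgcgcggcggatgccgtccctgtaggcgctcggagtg
Msh3: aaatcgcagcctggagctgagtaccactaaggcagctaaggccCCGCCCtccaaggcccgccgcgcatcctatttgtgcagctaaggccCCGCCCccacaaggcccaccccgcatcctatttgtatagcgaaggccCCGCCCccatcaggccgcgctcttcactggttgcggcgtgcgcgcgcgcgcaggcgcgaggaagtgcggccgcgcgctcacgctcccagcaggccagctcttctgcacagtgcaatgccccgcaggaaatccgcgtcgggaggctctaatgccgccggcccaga
Pms2: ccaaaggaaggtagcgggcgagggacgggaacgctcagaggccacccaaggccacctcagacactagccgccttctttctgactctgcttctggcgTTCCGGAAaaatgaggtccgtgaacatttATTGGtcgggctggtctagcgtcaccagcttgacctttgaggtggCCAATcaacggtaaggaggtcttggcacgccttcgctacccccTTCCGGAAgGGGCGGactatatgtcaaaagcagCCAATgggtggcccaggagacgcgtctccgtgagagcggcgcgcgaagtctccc
The Msh6 window held TTTCCCGC from 5 bases before the start, a match found in 0.974% of the 33469 rat promoters of this length and in 2.05% of the 11583 promoters of tested genes. It also held 2 GC boxes and 2 CCAAT matches. The Msh3 window held 3 GC boxes and none of the other motifs. The Pms2 window held 1 GC box, 3 CCAAT matches and CCGGAA on both strands at 2 places, where the 2 strands overlap. In the Mlh3 window (chr6:110648614-110648913, minus strand) none of the 5 letter strings was present. Of all promoters, 33.1% held GGGCGG, 37.5% CCAAT, 14.95% CCGGAA and 0.493% TTTGGCGC. Of the promoters of tested genes, the shares were 59.8%, 37.3%, 26.5% and 0.855%. The count of CpG dinucleotides was 38 in Msh6, 31 in Msh3, 22 in Pms2 and 18 in Mlh3, against a median of 7 over all promoters and 20 over those of tested genes. A match in letters is a description and not evidence that a factor binds.

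All 5 members were read in every library, and all passed the filter on low counts that left 13331 genes for testing. Total counts were between 12601774 and 24335921 per library. Member counts ran from 204 for Pms1 in ex vivo 1 to 8984 for Msh6 in cells p5. Levels are given as CPM, the usual depth-scaled read count, after TMM scaling, an adjustment for library composition. As no transcript lengths were used, levels of the members are compared between libraries and not between genes.

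Msh6, which recognises base mispairs, was read at 386, 341 and 329 CPM in cells p5, p8 and p11. In organoids p7, p8 and p9 it was read at 297, 217 and 237 CPM, and in ex vivo 1, 2 and 3 at 194, 315 and 270 CPM. All 3 cell libraries were thus above all 6 others, while organoids and tumors overlapped. The share of all tested genes that separate 3 libraries from 6 in this way is not given. The means were 352 ± 30.4 CPM in cells, 250.5 ± 41.7 CPM in organoids and 259.7 ± 60.9 CPM in tumors (SD, n = 3 each).

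Msh3, the partner in recognition of larger loops, stood at 36.3, 33.6 and 31.7 CPM in the cell libraries in the same order. The organoids had 35.3, 27.0 and 25.4 CPM, and the tumors 23.5, 27.3 and 22.8 CPM. The 3 tumors were below the 3 cell libraries, and organoids p7 lay among the cells while organoids p8 and p9 lay among the tumors. The means were 33.9 ± 2.34, 29.2 ± 5.32 and 24.5 ± 2.43 CPM in cells, organoids and tumors (SD, n = 3 each).

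Pms2, the endonuclease subunit, had 31.4, 42.3 and 42.3 CPM in cells, 45.3, 38.7 and 40.5 CPM in organoids and 30.2, 37.1 and 38.8 CPM in tumors. No type was separate from another: the lowest libraries were ex vivo 1 and cells p5. The means were 38.7 ± 6.26, 41.5 ± 3.40 and 35.3 ± 4.56 CPM (SD, n = 3 each).

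Mlh3, best known from meiosis, had 67.4, 55.0 and 64.3 CPM in cells and 63.7, 67.1 and 67.5 CPM in organoids. In tumors it had 35.1, 50.4 and 51.9 CPM, all 3 below every cultured library. The gap was small, from 51.9 CPM in ex vivo 3 to 55.0 CPM in cells p8. Here too no share of all tested genes is given for such a separation. The means were 62.2 ± 6.46, 66.1 ± 2.11 and 45.8 ± 9.30 CPM (SD, n = 3 each), and the order of cells and organoids did not exceed their spread.

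Pms1 had 31.5, 26.2 and 25.2 CPM in cells, 28.1, 19.0 and 19.8 CPM in organoids and 15.4, 23.6 and 19.99 CPM in tumors. The tumors were below the cells, and the organoids overlapped both. The means were 27.6 ± 3.42, 22.3 ± 5.05 and 19.7 ± 4.13 CPM (SD, n = 3 each). Ex vivo 1 was the lowest of the 9 libraries for Msh6, Pms2, Mlh3 and Pms1, and ex vivo 3 for Msh3.

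**Figure D1:**
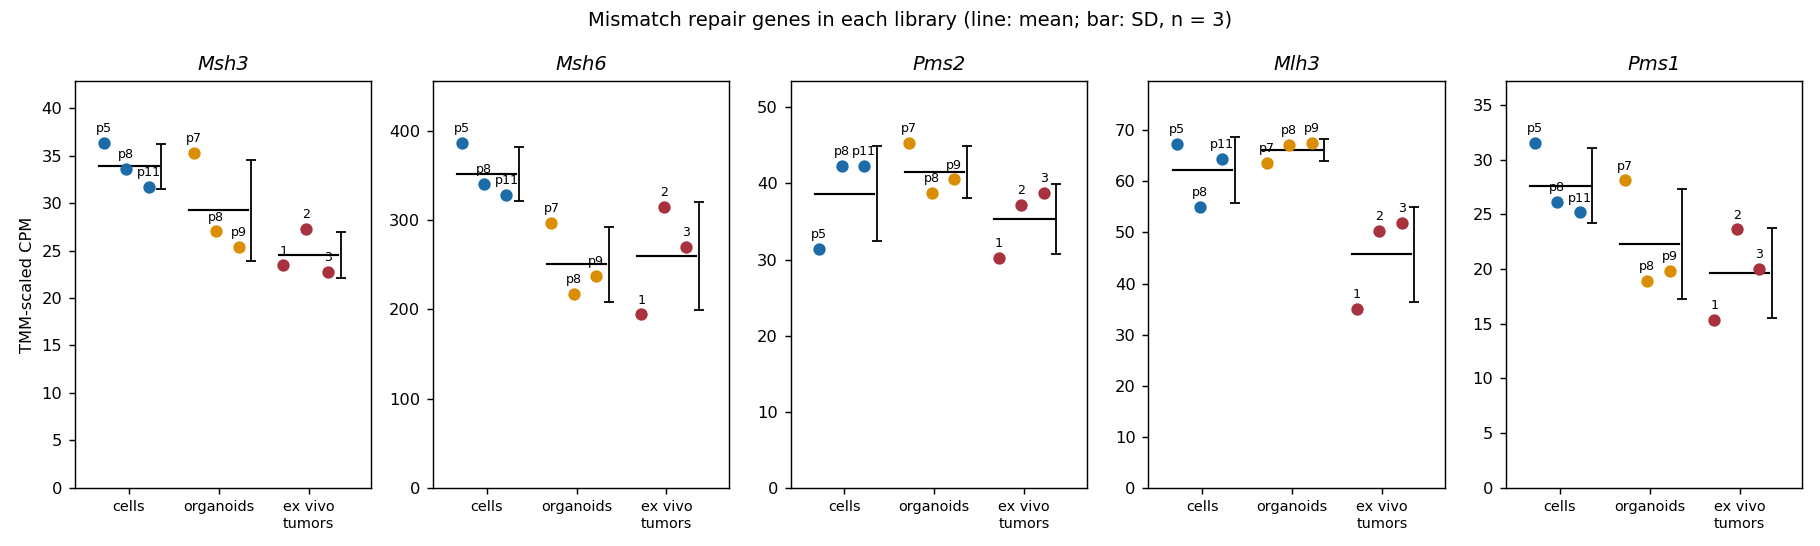
Level of each mismatch repair gene in TMM-scaled CPM (y axis, starting at 0, 1 scale per gene) in the 3 libraries of cells (blue), organoids (orange) and ex vivo tumors (red), with passage or tumor number beside each point, the mean as a line and the SD as a bar. Msh6 was between 329 and 386 CPM in cells and between 194 and 315 CPM in the other 6 libraries, and Mlh3 was between 35.1 and 51.9 CPM in tumors and at or above 55.0 CPM elsewhere.

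The members varied less over the 9 libraries than most genes did. The SD of log2 CPM was 0.20 for Pms2, 0.25 for Msh3, 0.31 for Mlh3, 0.32 for Pms1 and 0.33 for Msh6, against a median of 0.46 over the tested genes. Only 4.86% of tested genes had a smaller SD than Pms2, and 25.5% a smaller one than Msh6, the most variable member by this measure. The tested genes were not matched to the members by level, on which this SD also depends. The members had mean quantile-normalized log2 counts of 8.58 to 12.25, where tested genes reach down to 4. The highest library exceeded the lowest 1.502-fold for Pms2 and 2.05-fold for Pms1.

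The first comparison asked how growth in matrigel as organoids differed from growth as cells. Msh6 was lower in organoids by 0.49 on the log2 scale, a fold of 0.711, yet no member passed the test. For Msh6 the log2 fold change was -0.49 (SE 0.23, 95% interval -0.99 to 0.0052) with an adjusted p of 0.180 in edgeR's quasi-likelihood test with Benjamini-Hochberg adjustment over all tested genes. Pms1 had -0.31 (SE 0.24) and Msh3 -0.21 (SE 0.20), while Pms2 had 0.10 (SE 0.20) and Mlh3 0.09 (SE 0.20), with edgeR adjusted p-values from 0.437 to 0.814. The number of members called was 0 of 5, where 10.7% of all tested genes were called, and 0 of 5 had an unadjusted p under 0.05, where 28.5% of genes did. Only Msh6 had organoid libraries that were all below the cell libraries, a separation that 15.5% of tested genes showed. The median log2 fold change was -0.21 over the members and 0.03 over all tested genes. DESeq2's test also called 0 members, but limma-voom with library weights called 3: Msh6 (-0.61, adjusted p 0.00153), Pms1 (-0.49, adjusted p 0.0109) and Msh3 (-0.37, adjusted p 0.0269). Over all tested genes, limma-voom called 53.7% here and DESeq2's test 17.7%, so that 3 of 5 members is near the limma-voom background. Organoids p7 was the highest organoid library for these 3 genes, and without it the log2 fold change of Msh6 was -0.66 (edgeR adjusted p 0.0579).

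The second comparison set tumors grown in the peritoneum against cultured cells of the same line. Of the 5 members, 4 had all tumor libraries below all cell libraries, but none passed the test. The log2 fold change was -0.49 for Pms1 (SE 0.25, 95% interval -1.03 to 0.048), -0.47 for Msh3 (SE 0.20, -0.92 to -0.018), -0.44 for Mlh3 (SE 0.20, -0.88 to -0.0049) and -0.44 for Msh6 (SE 0.23, -0.93 to 0.058), which are folds of 0.712, 0.723, 0.736 and 0.738. Pms2 differed least, by -0.13 (SE 0.20, -0.57 to 0.32). The edgeR adjusted p-values were 0.138 for Msh3, 0.148 for Mlh3, 0.188 for Pms1, 0.200 for Msh6 and 0.696 for Pms2. The share of all tested genes called was 19.2%, against 0 of 5 members. Unadjusted p-values were under 0.05 for Msh3 and Mlh3, 2 of 5 members, against 32.8% of genes, and the 4 of 5 members with separate and lower tumor libraries stand beside 18.8% of genes. The median was -0.44 over the members and 0.00 over all tested genes. DESeq2's test called 0 members, limma-voom with library weights called Msh3 (-0.47, adjusted p 0.0434), and limma on quantile-normalized values called Msh3 (-0.68, adjusted p 0.0301) and Pms1 (-0.82, adjusted p 0.0332). That normalization moved the median of all genes to -0.26, and these values include that shift. Of all tested genes, DESeq2's test called 24.6%, limma-voom 32.3% and limma on quantile-normalized values 30.8%.

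Tumors hold RNA of host cells, and in bulk tissue fewer cells of a type and less RNA per cell cannot be told apart. The summed level of 12 macrophage markers was between 2.84 and 5.83 CPM in both culture types and between 3571 and 4184 CPM in tumors. The 10 fibroblast markers summed to 4.09 to 15.5 CPM in culture and 4527 to 9317 CPM in tumors, the 8 endothelial markers to 21.9 to 64.8 CPM and 219 to 365 CPM, and the 13 markers of T, NK and B cells to 1.71 to 3.34 CPM and 164 to 833 CPM. Of the macrophage markers, 5 were at 0 in all cell libraries and 7 in all organoid libraries, and none of these markers was at 0 in a tumor. The 11 colon epithelium markers summed to between 3345 and 6816 CPM over the 9 libraries and were all detected in each. Ex vivo 1, the tumor with the lowest reading of 4 members, had the highest sums of lymphocyte markers (833 CPM) and of 7 erythrocyte markers (1261 CPM, against 221 and 335 CPM in the other tumors). Its colon epithelium sum was also the highest of the 9 libraries, 6816 CPM against 4342 and 4281 CPM in ex vivo 2 and 3. For macrophage, fibroblast and endothelial markers, ex vivo 3 had the highest sum. The part of host cells in the lower values of the members was not tested. Without ex vivo 1, the log2 fold changes against cells were -0.44 for Msh3, -0.34 for Pms1, -0.29 for Mlh3, -0.27 for Msh6 and -0.03 for Pms2, and edgeR called none of the 5.

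The third comparison set tumors against organoids, which share growth outside a monolayer. Mlh3 was the one member whose tumor libraries were all lower, at a fold of 0.693, and it missed the threshold. Its log2 fold change was -0.53 (SE 0.20, 95% interval -0.97 to -0.09), with an unadjusted p of 0.0222 and an adjusted p of 0.0773 in edgeR. DESeq2's test (-0.55, adjusted p 0.0459), limma on quantile-normalized values (-0.60, adjusted p 0.0390) and limma-voom with library weights (-0.43, adjusted p 0.00846) each called it, and called 28.9%, 34% and 56.6% of all tested genes. Without ex vivo 1 it was -0.35 (edgeR adjusted p 0.187). Msh3 had -0.26, Pms2 -0.23, Pms1 -0.18 and Msh6 0.05, with edgeR adjusted p-values of 0.386, 0.428, 0.620 and 0.884. The edgeR fit called 0 of 5 members and 22.7% of all tested genes. An unadjusted p under 0.05 was found for 1 of 5 members and for 37.8% of genes, and separate, lower tumor libraries for 1 of 5 members and 19.7% of genes. Medians were -0.23 and 0.03. The 3 comparisons share libraries, so they are not independent of one another.

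**Figure D2:**
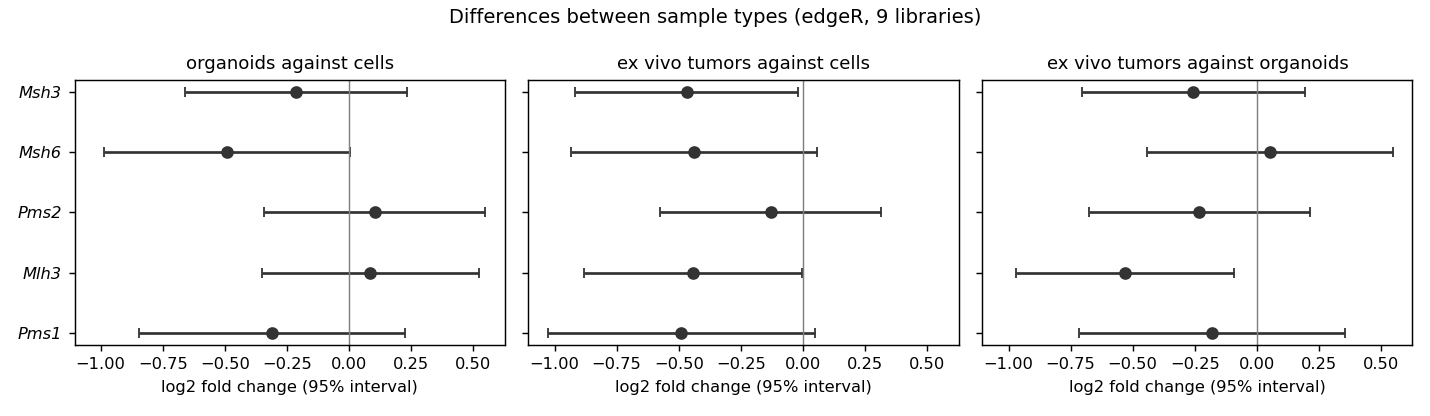
Log2 fold change (x axis) of each mismatch repair gene in the 3 comparisons, as points with 95% intervals from edgeR on 9 libraries. Intervals that leave out 0 are those of Msh3 and Mlh3 in tumors against cells (-0.47 and -0.44) and of Mlh3 in tumors against organoids (-0.53), before adjustment for the number of genes.

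Ratios between members within a library do not depend on the scaling between libraries. Counts of Msh6 for each count of Msh3 were between 10.1 and 10.6 in the 3 cell libraries and between 8.03 and 9.34 in the organoids, all below the cells. In tumors the ratio was 8.29, 11.5 and 11.9, so ex vivo 1 lay with the organoids and the other two above the cells. The ratio of Pms2 to Mlh3 was 0.466, 0.769 and 0.657 in cells p5, p8 and p11, between 0.577 and 0.712 in organoids and between 0.737 and 0.860 in tumors. The tumors were thus above the organoids but overlapped the cells. The ratio of Pms2 to Pms1 was 0.997 in cells p5 and between 1.57 and 2.04 in the other 8 libraries. These ratios are descriptions. No share is given of other gene pairs whose libraries separate in this way. As no transcript length was used, the ratios are of counts and not of transcript numbers.

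**Figure D3:**
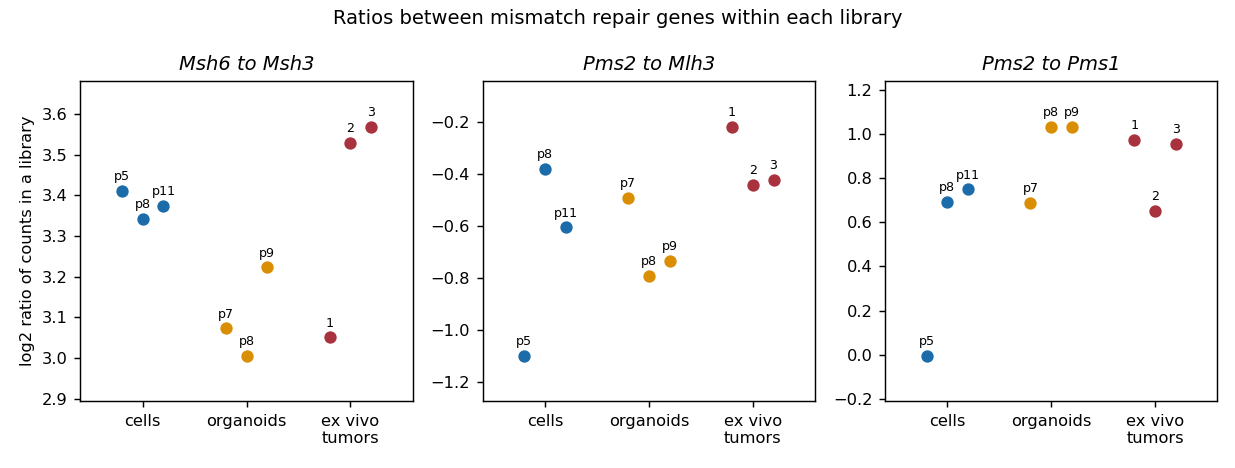
Log2 ratio of the counts of 2 mismatch repair genes within each library (y axis, 1 scale per panel, not starting at 0), by sample type, with passage or tumor number beside each point. The log2 ratio of Msh6 to Msh3 was between 3.34 and 3.41 in cells and between 3.01 and 3.22 in organoids.

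Among the members, Msh6 and Pms1 had the most similar pattern over the 9 libraries. The root mean square difference of their log2 CPM, each centred on its own mean, was 0.109. The difference was 0.133 for Msh3 and Pms1, 0.197 for Msh3 and Msh6 and 0.250 for Pms2 and Mlh3, and it reached 0.324 for Msh6 and Pms2. Genes outside the group came closer than any member did, but they were picked as the closest of a far larger pool. That pool was the part of the 13331 tested genes with a gene name in place of an identifier. Near to Pms1 were Sin3a, the scaffold of a histone deacetylase complex (0.0555), and Zc3h14 (0.0885). Nearest to Msh6 were Hnrnpul1, an RNA-binding protein (0.0795), Hars2, the mitochondrial histidyl-tRNA synthetase (0.0840), and Wdr48, a cofactor of deubiquitinating enzymes (0.0980). For Msh3 they were Uri1, a prefoldin-like protein (0.0946), Gin1 (0.102) and Mtf2, a Polycomb-associated protein (0.104). For Pms2 they were Zfp687 (0.0657), Neurl4 (0.0704) and Gtf3c2, a subunit of a factor of RNA polymerase III (0.0900). For Mlh3 they were Zmym2 (0.0737), Stx17, a SNARE protein of autophagosomes (0.0743), and Spg11 (0.0752). The median difference over the genes of this pool was between 0.457 and 0.508, depending on the member.

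The related genes of the pathway were described by lists. Excision and resynthesis comprised 16 genes, among them the exonuclease Exo1, the sliding clamp Pcna, its loaders, the single-strand binding proteins, the subunits of DNA polymerase delta and the ligase Lig1. In tumors against cells, 1 of the 16 rose and 0 fell, where 12.4% of all tested genes rose and 6.78% fell. The gene that rose was Pold4, the small subunit of DNA polymerase delta, read at 1.29, 2.10 and 4.37 CPM in cells and 20.7, 9.60 and 9.88 CPM in tumors. Its log2 fold change was 2.38 (SE 0.49, edgeR adjusted p 0.00547). The level in organoids lay between, at 9.23, 6.52 and 5.42 CPM, above all 3 cell libraries (log2 fold change 1.46, edgeR adjusted p 0.0737). Pcna, the gene of this list with the highest CPM (not corrected for length), was at 265.0 ± 57.4, 251.6 ± 28.5 and 234.0 ± 19.2 CPM in cells, organoids and tumors (SD, n = 3 each), with edgeR adjusted p-values of 0.587 or above. Exo1, the exonuclease, was at 41.2 ± 14.7, 20.7 ± 10.7 and 23.6 ± 4.99 CPM (SD, n = 3 each), with edgeR adjusted p-values of 0.107 for organoids and 0.155 for tumors against cells. Exo1 was named after its values were seen.

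In organoids against cells, edgeR called 0 of the 16 excision and resynthesis genes in either direction, where 6.44% of all tested genes rose and 4.29% fell. An unadjusted p was under 0.05 for 6 of the 16, against 28.5% of all tested genes. DESeq2's test called 1 rise and 2 falls, where it called 17.7% of all tested genes, and limma-voom with library weights 1 rise and 12 falls, where it called 53.7%. With housekeeping scaling edgeR called 2 falls, where it called 9.87% of all tested genes. The median log2 fold change was -0.46. Single libraries moved these counts: without organoids p7, edgeR called 7 falls and 25.4% of all tested genes, and without cells p11, 1 rise and 2 falls. The share of all tested genes called without cells p11 is not given. In tumors against organoids edgeR called 0 of 16, where 12.2% of all tested genes rose and 10.5% fell. Here 3 had an unadjusted p under 0.05, against 37.8% of all tested genes, and DESeq2's test called 0. Rises were called for 10 genes by limma-voom with library weights (56.6% of all tested genes called), for 5 by edgeR without organoids p7 (36.6%), for 3 by edgeR with housekeeping scaling (22.5%) and for 1 by limma on quantile-normalized values (34%). Medians were -0.18 in tumors against cells and 0.29 in tumors against organoids.

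The other repair lists held no gene that passed edgeR's test. The recruitment and partner genes were Setd2, the histone methyltransferase whose mark recruits Msh6, the helicases Mcm8, Mcm9 and Wrn, the nuclease Fan1 and the chromatin protein Hmgb1. Of these 6 genes, 0, 1 and 2 had an unadjusted p under 0.05 in organoids against cells, tumors against cells and tumors against organoids, against 28.5%, 32.8% and 37.8% of all tested genes, with medians of -0.08, -0.43 and -0.34. Hmgb1, with the highest CPM of the list (not corrected for length), was at 685.9 ± 227.5, 436.6 ± 143.7 and 499.6 ± 86.5 CPM in cells, organoids and tumors (SD, n = 3 each). Of 6 DNA glycosylases that remove mispaired or damaged bases, 0, 0 and 1 had an unadjusted p under 0.05, against the same shares, with medians of -0.03, 0.16 and 0.27. Tdg, a thymine glycosylase with the highest CPM of the 6 (not corrected for length), was at 125.5 ± 17.1, 144.1 ± 6.34 and 130.3 ± 2.05 CPM. The meiotic MutS homologs were barely read: Msh4 had 0 to 6 counts in a library and was not tested, and Msh5 was between 1.66 and 5.83 CPM, with edgeR adjusted p-values of 0.593 or above. Other tools called some of these genes, and the share of all tested genes each called is in brackets. DESeq2's test (28.9%) and edgeR with housekeeping scaling (22.5%) each called 1 glycosylase as higher in tumors than in organoids. Limma-voom with library weights called Msh5 as higher in organoids than in cells (53.7%) and lower in tumors than in organoids (56.6%). In organoids against cells it also called 1 rise and 2 falls in each of the lists of 6 genes. In tumors against organoids limma-voom called 2 rises and 2 falls of the partner genes and 3 rises of the glycosylases. In tumors against cells (32.3%) it called none of either list. Limma on quantile-normalized values called 2 partner genes and Msh5 as lower in tumors, against cells (30.8%) as well as against organoids (34%). Without organoids p7, edgeR called 1 partner gene and 2 glycosylases as lower in organoids than in cells (25.4%). In tumors against organoids (36.6%) it then called 1 partner gene as lower and 3 glycosylases as higher in tumors.

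**Figure D4:**
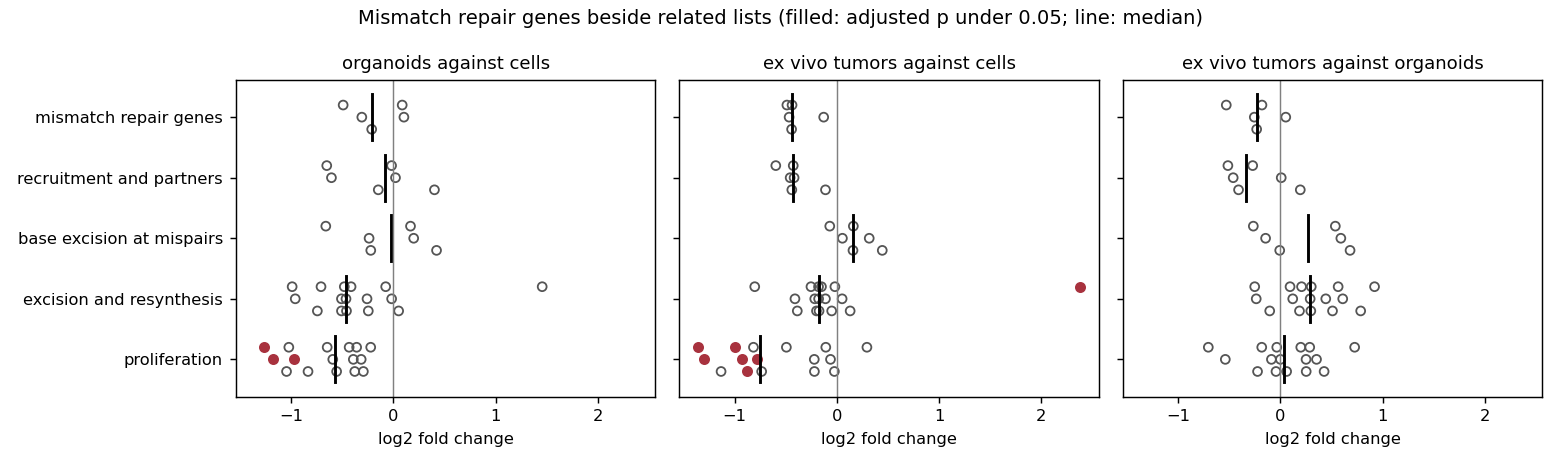
Log2 fold change (x axis) of each tested gene of the mismatch repair group and of 4 related lists in the 3 comparisons, with the list median as a vertical line and genes with an edgeR adjusted p under 0.05 filled. Filled points are Pold4 in tumors against cells, and proliferation genes, 3 in organoids and 6 in tumors against cells.

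Some genes of proliferation passed the test in the same libraries, and the difference between this list and the mismatch repair genes was not tested. In organoids against cells, 3 of 16 fell and 0 rose, where 4.29% of all tested genes fell: Bub1, a kinase of the mitotic checkpoint (-1.26, edgeR adjusted p 0.0390), Ccna2, the S-phase and G2 cyclin (-1.17, 0.0201), and Aurka, a mitotic kinase (-0.98, 0.0243). In tumors against cells, 6 of 16 fell and 0 rose, where 6.78% of all tested genes fell, with Ccna2 (-1.36, edgeR adjusted p 0.00484) and Bub1 (-1.30, 0.0211) as the largest falls. The medians were -0.57 and -0.76, and 0.03 in tumors against organoids. There edgeR called 0 of 16, where it called 22.7% of all tested genes, and 1 had an unadjusted p under 0.05 (37.8% of all tested genes). DESeq2's test called 1 fall there (28.9% of all tested genes called), and limma-voom with library weights 8 rises and 1 fall (56.6%). Mki67, the proliferation antigen that the study stained, was at 720 ± 203, 477 ± 106 and 409 ± 128 CPM in cells, organoids and tumors (SD, n = 3 each). It did not pass, with an edgeR adjusted p of 0.0883 in tumors against cells and 0.232 in organoids against cells.

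The proliferation counts depended on the tool and on single libraries, and so did the number of all genes called. The closing section gives that number for some settings. In organoids against cells, 6 falls were called by DESeq2's test (17.7% of all tested genes called) and by edgeR without a filter. Limma-voom with library weights called 15 falls (53.7% of all tested genes called), and edgeR on the 6 libraries compared alone called 0. In tumors against cells, limma-voom called 10 falls, where it called 32.3% of all tested genes. Without cells p5, cells p8, organoids p8 or organoids p9, edgeR called 0 falls in organoids against cells. Without cells p11 or organoids p7 it called 6 and 8, the latter where it called 25.4% of all tested genes. Without organoids p7 it called 2 rises and 1 fall in tumors against organoids, where it called 36.6% of all tested genes. In tumors against cells it called 2 falls without cells p5, 1 without cells p8 and 8 without cells p11. It called 1 without ex vivo 1 and 2 without ex vivo 2. The share of all tested genes called is not given for these fits of tumors against cells. Nor is it given for organoids against cells without cells p11 or without a filter. These changes in count therefore cannot be told apart from changes over all genes. The cell libraries themselves differed: the 16 genes summed to 4487, 4835 and 2853 CPM in p5, p8 and p11. Msh6 was at 386, 341 and 329 CPM there, and no member had the order of these sums in the cells. In organoids p7, p8 and p9 the sums were 3344, 2000 and 2415 CPM, in the same order from high to low as for Msh6, Pms2 and Pms1 but not Msh3 and Mlh3. In ex vivo 1, 2 and 3 they were 2163, 2835 and 2679 CPM, again in the order of Msh6 and Pms1 but not of Msh3, Pms2 and Mlh3. No share is given of all tested genes whose libraries run in the order of the sums, so a shared order is a description only. Whether the difference in proliferation genes has a part in the members' values was not tested.

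Genes next to the members in the RefSeq table of GRCr8 were read for comparison. Rasgrf2, beside Msh3, had at most 9 counts in a library and was not tested.

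Pms2 and Aimp2, a scaffold protein of the tRNA synthetase complex, start 222 bases apart on opposite strands, and their promoter windows share 279 of 300 bases. RefSeq holds a further Pms2 start, which is 214 bases from that of Aimp2. The levels did not run alike in every library: ex vivo 1 had the highest Aimp2 level of the 9 libraries, 67.3 CPM, and the lowest Pms2 level, 30.2 CPM. In the other 8 libraries Aimp2 was between 32.5 and 48.6 CPM. The mean of Aimp2 was 39.2 ± 8.20, 38.9 ± 3.99 and 47.6 ± 17.8 CPM in cells, organoids and tumors (SD, n = 3 each), and no comparison passed, with edgeR adjusted p-values of 0.465 or above. Rsph10b, on the other side of Pms2, had at most 14 counts in a library and was not tested.

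In tumors against organoids, both neighbours of Mlh3 differed in the direction opposite to Mlh3. Eif2b2 encodes a subunit of the exchange factor for translation initiation factor 2. It was at 53.7, 42.3 and 49.5 CPM in organoids and 96.4, 83.8 and 73.1 CPM in tumors, a rise of 0.80 on the log2 scale (SE 0.20, edgeR adjusted p 0.0168), where Mlh3 had -0.53. Of all tested genes, 12.2% rose in this comparison. The rise of Eif2b2 no longer passed without organoids p8 (edgeR adjusted p 0.0874) or organoids p9 (0.0623). Acyp1, an acylphosphatase on the other side, was at 17.9 ± 4.92, 9.05 ± 3.23 and 16.4 ± 3.17 CPM in cells, organoids and tumors (SD, n = 3 each). It passed in no comparison, with edgeR adjusted p-values of 0.0726, 0.821 and 0.0753 in organoids against cells, tumors against cells and tumors against organoids. In tumors against organoids its log2 fold change was 0.86 (SE 0.32), with all tumor libraries above all organoid libraries.

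The remaining neighbours were Fbxo11, a substrate receptor of a ubiquitin ligase that overlaps Msh6 in this annotation, and Osgepl1 and Ormdl1, which both overlap Pms1. Whether reads were counted by strand is not stated in the sources used, and reads of overlapping genes therefore cannot be assigned to one with certainty. Fbxo11 was at 150.2 ± 22.004, 137.0 ± 31.9 and 100.2 ± 29.9 CPM in cells, organoids and tumors (SD, n = 3 each), with the tumors below the cells (-0.58, edgeR adjusted p 0.145). In organoids against cells it had -0.13 where Msh6 had -0.49. Osgepl1, a mitochondrial tRNA-modifying enzyme, and Ormdl1, a regulator of sphingolipid synthesis, passed in no comparison, with edgeR adjusted p-values of 0.337 or above. Kcnk12, on the other side of Msh6, had at most 2 counts in a library and was not tested.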

How the data were processed

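The 9 mRNA libraries (3 of cultured CC-531 cells, 3 of organoids, 3 of tumors) were processed by the authors, per the submitters' processing notes and the study's methods, in these steps: quality control (FastQC 0.11.9, MultiQC 1.9), trimming (cutadapt 1.18), and alignment and gene counting with STAR 2.7.4 on the mRatBN7.2 build. The deposited table is named as normalized, and what this refers to is not stated. Its values are whole numbers whose totals differ between libraries, and they were treated as raw counts per gene. Of its columns, 0 were left unused. For the strand setting and the annotation release, nothing is stated in the sources used.

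Counts were analysed in R 4.3.3 with edgeR 4.0.16: TMM scaling, 1 mean per sample type for all 9 libraries (6 residual degrees of freedom), and two-sided quasi-likelihood tests at a Benjamini-Hochberg adjusted p under 0.05 over all tested genes. Genes were kept where the mean quantile-normalized log2(count + 1) was at least 4, a filter that the study states. Standard errors are the log2 fold change over the square root of F. The library totals (12601774 to 24335921) set the counting precision. Alternatives were DESeq2 1.42.0 (size factors and test), housekeeping scaling, quantile normalization with limma 3.58.1, limma-voom with library weights, other filters, the 6 libraries compared alone, and each library left out. The fit was tested on simulated counts with 2-fold and 4-fold changes. In organoids against cells, tumors against cells and tumors against organoids, it recovered 15%, 17% and 12% of the 2-fold changes. For the 4-fold changes the shares were 82%, 86% and 80%. Changes as small as those of the members were not simulated. Counts of related lists under each alternative were added after seeing the data.

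The members and gene lists were chosen with earlier results of these data known. Named are the members, the called genes of each list with separate libraries (at most 2 rises and 2 falls a comparison, with Aurka added as 1 of the 3 that fell) and its highest gene, RefSeq neighbours, the 3 nearest patterns per member, and Mki67. A few of the genes it selects are not reported here. Symbols were matched to RefSeq GRCr8 tables (27234 of the table's symbols), whose promoter windows are printed. Promoters were read with Python 3.11.15.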

Additional observations from a re-analysis of the deposited data

How the results depend on the processing

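No paired analysis was possible because cells and organoids share 1 passage number and the labels give none for the tumors. No library left out, no other scaling in edgeR and no other filter gave a called member. The members called with limma-voom and library weights were 3 in organoids against cells, 1 in tumors against cells and 1 in tumors against organoids. With quantile normalization and limma they were 2 in tumors against cells and 1 in tumors against organoids, and with the DESeq2 test 1 in tumors against organoids. Genes called in organoids against cells were 2360 with the DESeq2 test, 7159 with limma-voom, 899 in the fit of 6 libraries and 519 to 3398 with 1 library left out (519 without cells p8, 571 without cells p5, 689 and 682 without organoids p8 and p9, and 3398 without organoids p7). In tumors against cells they were 4108 with quantile normalization, of which 1314 rose, 4312 with limma-voom, 5771 without a filter and 4606 with filterByExpr, against 2554, of which 1650 rose. In tumors against organoids they were 7547 with limma-voom, 6036 without a filter, 4840 with filterByExpr and 1831 to 4895 with 1 library left out (1831 without organoids p9, 4895 without organoids p7). Without a filter and with filterByExpr the number of genes tested differed too, so these counts are not shares of the same set. Values near 0 changed sign without reaching the threshold. For tumors against organoids, Pms1 was 0.10 with limma-voom and -0.33 to 0.042 with 1 library left out, positive without organoids p7, and Msh6 was -0.0057 without a filter and -0.10 to 0.24 with 1 library left out, negative without organoids p8 or ex vivo 2. Pms2 in organoids against cells was -0.029 to 0.17 with 1 library left out, negative without cells p5. The cause was not tested. The median of all genes was -0.26 and -0.21 in tumors against cells and against organoids with quantile normalization, 0.10 and 0.17 with housekeeping scaling, and 0.31 and 0.27 without a filter. With 3 libraries a type, the 95% intervals of the members' log2 fold changes reached from -1.03 to 0.55 at their outer ends.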
